A study of Mus musculus with 34 samples.

Results

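Simple tandem repeats are runs of a motif of 1 to 6 letters copied head to tail, and each motif was measured as one repeat family named by the motif in parentheses followed by n. Every family with a name of that form was taken as a member, which gave 282 of the 1482 repeat families measured in soma and 278 of the 1456 measured in primordial germ cells (PGCs). Of these motifs 272 were in both tables, 10 only in soma and 6 only in PGCs. The motifs found in 1 table had low averages. At the smallest depth that the averages allow, they had at most about 4.10 reads per soma library and 1.84 per PGC library. A family pools all copies of its motif in the genome, so a family has no single position.

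The signal was H3K9me2 CUT&RUN of sorted cells from the gonads of female Gulo-/- C57BL/6 mouse embryos at embryonic day 13.5. Some embryos developed with maternal vitamin C withdrawn for the first weeks of gestation, and the others with vitamin C supplied at a physiological level. PGCs, sorted as Oct4GFP-positive, had 5 withdrawn and 5 supplied libraries, and soma, the Oct4GFP-negative remainder, had 3 withdrawn and 4 supplied libraries, of 1000 cells each. All embryos of both groups lacked Gulo, without which a mouse makes no vitamin C of its own, and soma is a mixture of every gonadal cell type without the reporter. The tables hold a chromatin signal and no expression, so the sorted cell types could not be checked against the expression of their markers. In a mixture a different share of cell types and a different signal per cell cannot be told apart.

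H3K9me2 is a mark of repressed chromatin that is common over repeats and late-replicating DNA. Its removal is catalysed in part by Jumonji-domain demethylases, iron enzymes for which vitamin C acts as a cofactor. Simple tandem repeats, also called microsatellites, are among the fastest mutating sequences of mammalian genomes, and they include the CA repeats scattered through chromosome arms, the A runs left behind by retrotransposed elements and the TTAGGG repeat that caps telomeres.

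The motifs on which the results turn are written out here as short arrays, 5′ to 3′, with 1 copy of the motif in capitals. The arrays were made by repeating the motif in the deposited family name and are not reads, and each is given with its soma log2 fold change (withdrawn minus supplied) from the authors' deposited table. The first lines are the motifs that fell in soma.
(CATTC)n, log2 fold change -0.55 in soma: CATTCcattccattc
(GAATG)n, log2 fold change -0.60 in soma: GAATGgaatggaatg
(CGATA)n, log2 fold change -1.02 in soma: CGATAcgatacgata
(CTATT)n, log2 fold change -0.62 in soma: CTATTctattctatt
(CACTC)n, log2 fold change -0.59 in soma: CACTCcactccactc
The next lines are the motifs with the smallest p among those that rose, which are the same double-stranded repeat read from its opposite strands.
(CTGTG)n, log2 fold change 1.68 in soma: CTGTGctgtgctgtg
(CACAG)n, log2 fold change 1.64 in soma: CACAGcacagcacag
The last lines are the motif of the highest average in both tables, the A run, the alternating A and T motif and the telomere motif.
(CA)n, log2 fold change 0.71 in soma: CAcacacacacacacaca
(A)n, log2 fold change 0.078 in soma: Aaaaaaaaaaaaaaaaaa
(TA)n, log2 fold change 0.24 in soma: TAtatatatatatatata
(TTAGGG)n, log2 fold change 0.31 in soma: TTAGGGttagggttaggg

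The values come from the authors' deposited tables of a voom and limma comparison, which give a log2 fold change, an average and a p-value per family but no value per library. That the tables are of H3K9me2 and not of the IgG controls is assumed, since the group sizes are the same and no header names the antibody. Soma differences are withdrawn minus supplied, as read from the standard errors, and the PGC sign, which cannot be read with 5 libraries a side, was assumed to be the same. Depth was not less than 2130351 reads per soma library and 792226 per PGC library, as geometric means of the effective size, at which the median simple repeat had about 50.5 and 31.2 reads. Levels are totals over all copies of a motif and are not divided by the length that the motif covers, so the level of a motif is a total and not a signal per length. Rose and fell mean an adjusted p under 0.05 over all families of the table.

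Most repeat families rose in soma, and the median simple repeat stood lower than the median of the other families. By the authors' deposited table, 141 of the 282 simple repeats rose in soma, against 1000 of the 1200 other families, and the background over all families was 77%. The median log2 fold change was 0.69 for simple repeats (1.61-fold) and 1.28 for the other families (2.43-fold), computed from the authors' deposited table. At the same table's threshold 5 simple repeats fell, against a background of 0.405%, while among the other families 1 fell. That family was 7SLRNA, the signal recognition particle RNA, at -0.58 in the authors' deposited table. The scaling of the libraries is not described by the labels or headers, and the median of all families stood at 1.18, so each motif was also set against that median family.

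Relative to the median family, 67 of the 282 simple repeats were lower past an adjusted p of 0.05 (limma's t after subtracting the median) and 0 were higher, with 1 higher at an unadjusted p under 0.05. The background over all families was 8.77% lower and 0% higher, and among the other families 63 of 1200 were lower. Counted without a test, 242 of the 282 simple repeats lay below the median family. Taken as a share of the summed signal of all families, simple repeats made up 10.3% in withdrawn soma and 14.2% in supplied soma. The summed CPM was higher in withdrawn soma, but such a sum depends on how the libraries were scaled. It was 147606 CPM in withdrawn and 106186 CPM in supplied soma for simple repeats, and 1.43e+06 and 748757 CPM for all families. The withdrawn sum of all families is larger than CPM can add up to without scaling factors. The sums are therefore not read as more signal in withdrawn soma, and the part played by scaling was not tested. In PGCs the share was 18.6% in withdrawn and 20.5% in supplied libraries, with no error available for these shares, and with the assumed PGC sign turned the PGC values would be exchanged, 20.5% in withdrawn and 18.6% in supplied libraries. The median of simple repeats was below that of other families in each of 4 equal bins of average signal. From the lowest bin to the highest, the median log2 fold change was 0.78, 0.68, 0.71 and 0.46 for simple repeats and 1.07, 1.31, 1.37 and 1.13 for other families, computed from the authors' deposited table.

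**Figure D1:**
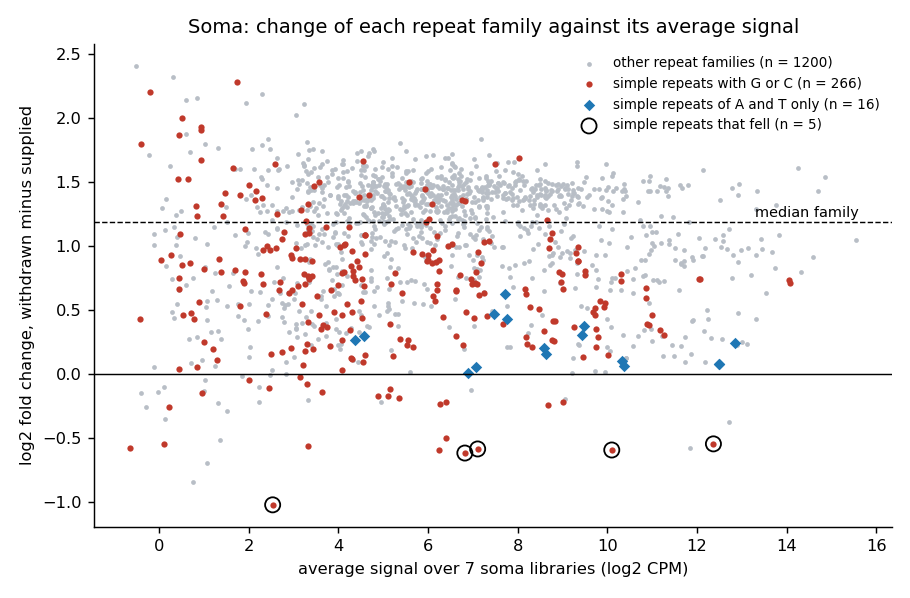
Log2 fold change in soma (withdrawn minus supplied) of each repeat family against its average signal in log2 CPM over 7 libraries, 1 point per family, with the median family at 1.18 as a dashed line. Most simple repeats lie under the dashed line, the motifs made only of A and T between 0.0029 and 0.63, and the 5 ringed motifs are those that fell.

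The calls rest on pooled degrees of freedom: the test behind the authors' deposited table used 7410, which are 5 per family summed over all families. With the 5 residual degrees of freedom as reference and the pooled standard errors kept, 76 simple repeats rose, 0 fell and 0 were lower than the median family. At an unadjusted p under 0.05 there were 93, 0 and 84. The soma standard errors followed a smooth function of the group averages with a misfit of 0.192%. They therefore hold little of a motif's own spread between libraries, and no test with a separate variance for each motif was run. The fallen motifs and those called below the median are therefore calls of the pooled test.

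All 5 motifs that fell in soma have 5 letters. (CATTC)n had the most reads of them, with a geometric mean of 4256 CPM in withdrawn soma and 6222 CPM in supplied soma. Its log2 fold change was -0.55 ± 0.22 (SE; adjusted p = 0.0177, limma) in the authors' deposited table. Its strand partner (GAATG)n, the same duplex named from its opposite strand, had 867 CPM in withdrawn soma and 1310.1 CPM in supplied soma. The change of (GAATG)n was -0.60 ± 0.24 (adjusted p = 0.0200, limma) in the authors' deposited table. In human, tandem arrays of this duplex form classical pericentromeric satellites, and mouse pericentromeres are built of an unrelated satellite named GSAT_MM. GSAT_MM rose by 1.43 ± 0.20 (adjusted p = 1.52e-10, limma) in the authors' deposited table. All 5 satellite families rose, where the background over all families was 77%. Relative to the median family, GSAT_MM was only 0.24 higher, short of the threshold (adjusted p = 0.602, limma's t after subtracting the median).

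(CTATT)n, with 88.5 CPM in withdrawn and 136 CPM in supplied soma, changed by -0.62 ± 0.29 (adjusted p = 0.0398, limma) in the authors' deposited table. (CACTC)n, with 109 CPM in withdrawn and 164 CPM in supplied soma, changed by -0.59 ± 0.28 (adjusted p = 0.0490, limma) in the same authors' deposited table. (CGATA)n had the lowest value of any simple repeat, -1.02 ± 0.45 (adjusted p = 0.0297, limma) in the authors' deposited table. It rests on 3.86 CPM in withdrawn and 7.85 CPM in supplied soma, about 12.3 reads per library. Just outside the threshold lay (CGGAA)n at -0.60 ± 0.29 (adjusted p = 0.0529, limma) and (AATAG)n, the partner of (CTATT)n, at -0.50 ± 0.29 (adjusted p = 0.103, limma) in the authors' deposited table. Each of these 7 motifs was lower than the median family past the threshold.

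Apart from (CGATA)n, these motifs moved by a similar amount over a wide range of averages, with log2 fold changes from -0.62 to -0.50 at averages from 6.25 to 12.37 log2 CPM in the authors' deposited table. The difference of their averages, soma minus PGCs, was also similar, from -1.40 for (CATTC)n to -1.26 for (CTATT)n on the log2 scale, with (CGATA)n at -1.27. Neither trait was particular to these motifs. 7SLRNA, which is not a simple repeat, changed by -0.58 in soma in the authors' deposited table, with averages of 11.84 log2 CPM in soma and 13.12 in PGCs. In sequence, (CTATT)n and (AATAG)n, like (CACTC)n and also (CGGAA)n, each differ by 1 letter from some rotation or reverse complement of CATTC, and (CGATA)n by 2 letters. Of 28 families measured in soma at 1 letter from CATTC, 13 rose (46.4%), 2 fell (7.14%) and 9 were lower than the median family (32.1%), against 0.405% fallen and 8.77% lower over all families. Over all 163 motifs of 5 letters, the closer background, 76 rose (46.6%), 5 fell and 35 were lower than the median family (21.5%). CATTC was itself picked as a fallen motif. At 2 letters, 47 of 91 rose, 1 fell and 19 were lower than the median family. This grouping by sequence was made after the values were seen and carries no test.

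The motifs with the smallest p among those that rose were mostly strand pairs. (CTGTG)n had 507 CPM in withdrawn soma and 158 CPM in supplied soma, and its partner (CACAG)n had 345 CPM in withdrawn and 111 CPM in supplied soma. They rose by 1.68 ± 0.27 (adjusted p = 1.66e-08, limma) and by 1.64 ± 0.27 (adjusted p = 6.17e-08, limma) in the authors' deposited table. (CAGAG)n rose by 1.66 and its partner (CTCTG)n by 1.38 in the authors' deposited table. The pair (TACTG)n and (CAGTA)n rose by 1.50 and 1.39, and the pair (GGGTG)n and (CACCC)n by 1.44 and 1.33, in the authors' deposited table. (TGGGGG)n and (CCCCCA)n, a G-rich duplex of 6 letters, rose by 1.36 and 1.35, and (CAGA)n and (TCTG)n by 1.20 and 1.10, in the authors' deposited table. Against the median family none of these motifs was higher or lower past the threshold, the lowest adjusted p being that of (CTGTG)n (adjusted p = 0.321, limma's t after subtracting the median).

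(CATGC)n had the highest value of any simple repeat, 2.28 ± 0.50 (adjusted p = 1.31e-05, limma) in the authors' deposited table, from about 7.07 reads per library. Its partner (GCATG)n, with about 19.6 reads per library, stood at 0.070 ± 0.37 (adjusted p = 0.863, limma) in the authors' deposited table. The next highest values, at 1.91 or more, were those of (TCGGG)n and (CTAGG)n and of (GACTG)n and (ACATG)n, and each rose in the authors' deposited table with about 1.85 to 4.10 reads per library.

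By motif length, the median changes in soma ran from 0.35 to 0.75 without an order. The median log2 fold change was 0.35 for 1 letter, 0.74 for 2, 0.37 for 3, 0.75 for 4, 0.70 for 5 and 0.66 for 6 letters, computed from the authors' deposited table. Among the 5-letter motifs at or above the median average of all families it was 0.46. Of the motifs of each length, 2 of 4, 5 of 6, 6 of 20, 34 of 57, 76 of 163 and 18 of 32 rose, against 77% over all families. The 3-letter motifs had the largest share lower than the median family, 11 of 20 (55%), against 35 of 163 for 5-letter motifs (21.5%) and 8.77% over all families. The 5-letter motifs also had the widest range, from -1.02 to 2.28 in the authors' deposited table, and the lowest median average, 3.34 log2 CPM or about 21.5 reads per library. Spearman's rho between length and log2 fold change was 0.058 across the 282 motifs, which share libraries and depth.

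By base composition, motifs poor in G and C had the lowest median change. The median log2 fold change was 0.40 for motifs with under 25% G and C, 0.68 from 25% to under 50%, 0.74 at 50% and 0.76 above 50%, computed from the authors' deposited table. In the same order 12 of 50, 38 of 78, 23 of 34 and 68 of 120 motifs rose, and 22, 20, 5 and 20 were lower than the median family. Over all families 77% rose and 8.77% were lower. Spearman's rho between the share of G and C and the log2 fold change was 0.23 across the 282 motifs and 0.41 across the 120 at or above the median average of all families. The 16 motifs made only of A and T had a median of 0.22, from 0.0029 for (TAAAAA)n to 0.63 for (TATAA)n, in the authors' deposited table, both named after their values were seen. Of these, (TATAA)n rose and 12 of the 16 were lower than the median family. Motifs made only of G and C did not form the opposite end, with a median of 0.63 and 8 of 15 risen.

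**Figure D2:**
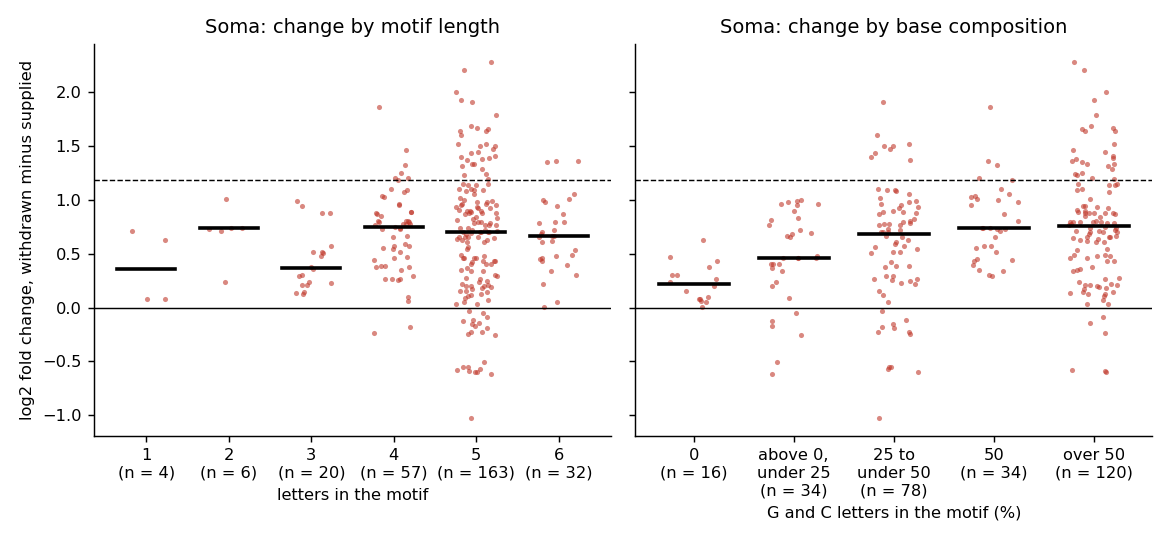
Log2 fold change in soma (withdrawn minus supplied) of the 282 simple repeats by number of letters in the motif (left) and by percent of G and C letters (right), 1 point per motif with the median as a bar, 0 as a solid line and the median family as a dashed line. Medians by length lie between 0.35 and 0.75, and the motifs with no G or C have a median of 0.22.

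Motifs with CG, the dinucleotide that carries DNA methylation in mammals, were few and thinly covered. Of 47 motifs that hold CG when written as an array 16 rose (34%), 1 fell and 7 were lower than the median family (14.9%), with a median of 0.53. Without CG 125 of 235 rose (53.2%), 4 fell and 60 were lower than the median family (25.5%), with a median of 0.70. Over all families 77% rose, 0.405% fell and 8.77% were lower. The median motif with CG had about 13.1 reads per library and the median motif without CG 98.8. (CG)n itself rose by 1.00 ± 0.32 (adjusted p = 0.00308, limma) in the authors' deposited table. Motifs with only purines on one strand, such as GA and GGA, rose in 26 of 34 cases (76.5%), a share near the background of 77%, with a median of 0.71. The 10 low-complexity families, which are biased in composition but have no repeated unit, had a median of 0.77 and 7 rose. Among them AT_rich rose by 0.79 ± 0.20 and GC_rich by 0.74 ± 0.24 in the authors' deposited table.

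Among the shortest motifs, the A and T runs had values near 0 and the CA repeats rose. (A)n had 5940 CPM in withdrawn soma, a value near its 5626 CPM in supplied soma, and (T)n had 5901 and 5587 CPM in withdrawn and supplied soma. Their log2 fold changes were 0.078 ± 0.22 and 0.079 ± 0.22 in the authors' deposited table, and both were lower than the median family (adjusted p = 4.65e-05 for (A)n, limma's t after subtracting the median). (CA)n, the most abundant dinucleotide repeat of the mouse genome, had 22925 CPM in withdrawn soma and 13999 CPM in supplied soma. It rose by 0.71 ± 0.20 (adjusted p = 0.000763, limma) and its partner (TG)n by 0.73 ± 0.20 (adjusted p = 0.000525, limma) in the authors' deposited table. (GA)n and (TC)n both rose by 0.74, and (C)n by 0.63 and (G)n by 0.71, in the authors' deposited table. (TA)n, its own reverse complement, stood at 0.24 ± 0.21 in the authors' deposited table and was lower than the median family (adjusted p = 0.000402, limma's t after subtracting the median).

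The 20 motifs of 3 letters, of which several are known from human repeat expansion disorders, ranged from 0.13 to 0.99 in soma, and 6 of them rose. The motifs named here were chosen after their values were seen. (TTC)n and (GAA)n, the duplex that expands in Friedreich ataxia, rose by 0.99 and 0.88, and (GGA)n and (TCC)n by 0.94 and 0.88, in the authors' deposited table. Per the authors' deposited table, (TTG)n rose by 0.57 and (CAA)n by 0.52. (ATG)n and (CAT)n, at similar values of 0.52 and 0.50, did not pass, so the threshold cut a continuous range. (CAG)n and (CTG)n, the duplex of Huntington disease and myotonic dystrophy, stood at 0.14 ± 0.24 and 0.21 ± 0.25 and did not pass in the authors' deposited table. (CGG)n and (CCG)n, the duplex of fragile X syndrome, stood at 0.21 ± 0.27 and 0.24 ± 0.27 in the authors' deposited table. The CAG and CGG duplexes were lower than the median family on both strands, by 0.95 to 1.04 on the log2 scale.

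The telomere motif was among those lower than the median family. (TTAGGG)n had 2796 CPM in withdrawn soma and 2262 CPM in supplied soma, and its partner (CCCTAA)n had 437 CPM in withdrawn and 346 CPM in supplied soma. Their log2 fold changes were 0.31 ± 0.23 (adjusted p = 0.212, limma) and 0.34 ± 0.26 (adjusted p = 0.227, limma) in the authors' deposited table. Relative to the median family they stood at -0.88 (adjusted p = 0.00343) and -0.85 (adjusted p = 0.0174, limma's t after subtracting the median). Reads of this motif can come from telomere ends and from internal arrays, which the tables do not separate.

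A motif and its reverse complement are the same double-stranded sequence, named by the strand on which an array was annotated, and both names were measured in the same libraries. Whether the names of a pair share reads is not known, so the likeness of partners is a description. The 282 motifs in soma reduced to 147 double-stranded repeats, of which 135 had both names measured. The absolute difference in log2 fold change within these pairs had a median of 0.11, against 0.49 between motifs that are not partners. In the 56 pairs with both averages at or above the median of all families it was 0.053, against 0.41 between other motifs, and in 54 of the 56 the difference was within 1 SE. Pearson's r across these 56 pairs, which share libraries, was 0.97. In PGCs the 63 pairs at or above the median average differed by a median of 0.061, against 0.19 between other motifs, with r of 0.86.

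**Figure D3:**
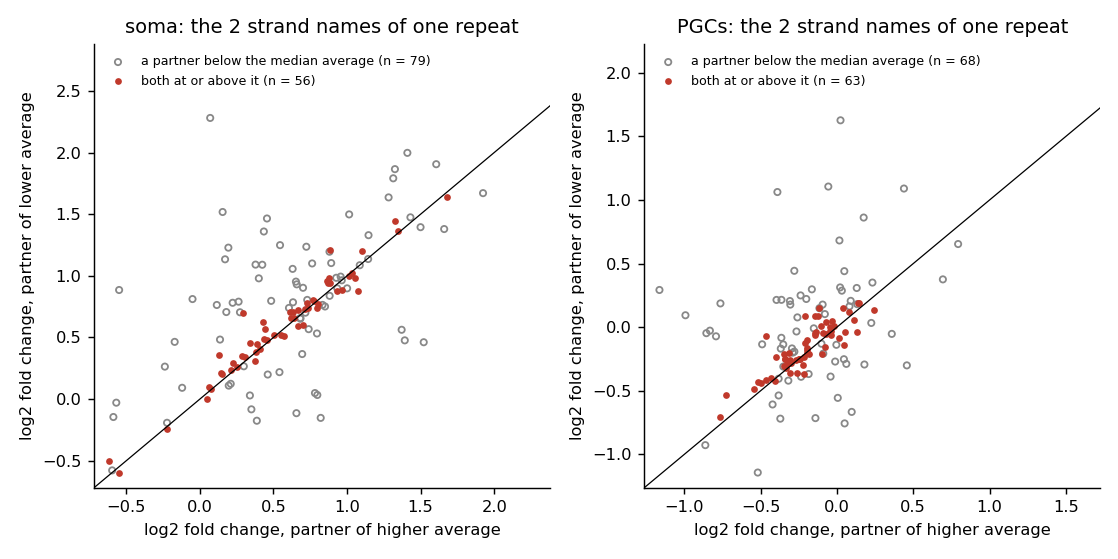
Log2 fold change (withdrawn minus supplied) of the 2 strand names of each double-stranded repeat in soma (left, 135 pairs) and PGCs (right, 131 pairs), with the line of equal values. Filled points, with both averages at or above the median of all families, lie close to the line, and open points, with a partner below it, scatter more widely.

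Levels of partners were mostly alike too, with a median gap in average of 0.19 log2 in soma, but a few pairs were far apart. (CGGAA)n stood 6.90 above (TTCCG)n, which had about 1.36 reads per library, and (CACTC)n stood 3.46 above (GAGTG)n in average log2 CPM, computed from the authors' deposited table. The telomere pair was apart by 2.70 and the pair of (CATTC)n and (GAATG)n by 2.27. The amount of annotated sequence behind each name was not analysed here.

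In PGCs no simple repeat rose or fell. By limma's test in the authors' deposited table, 0 of 278 passed, against a background of 0% in each direction over 1456 families, and 1 had an unadjusted p under 0.05. That motif was (CCTAT)n at 1.63 ± 0.70 in the authors' deposited table, from few reads, about 2.02 per library. The median log2 fold change was -0.14 for simple repeats and 0.13 for other families, and 193 of the 278 motifs were negative, computed from the authors' deposited table with the assumed sign. Relative to the median family 0 passed (limma's t after subtracting the median), against a background of 0% in each direction, with 2 at an unadjusted p under 0.05. The median SE of a simple repeat was 0.53 in PGCs and 0.31 in soma, so changes of the size of most soma values were not detectable in PGCs one motif at a time.

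With the assumed sign, the median in PGCs was lowest for the motifs poorest in G and C, and with the sign turned each value of this order would change sign and the order would be reversed. The median log2 fold change was -0.30 under 25% G and C, -0.21 from 25% to under 50%, -0.12 at 50% and -0.034 above 50%, computed from the authors' deposited table. Spearman's rho with the share of G and C was 0.37 across 278 motifs and 0.59 across the 138 at or above the median average, and would be -0.37 and -0.59 with the sign turned. (A)n stood at -0.43 ± 0.38 and (TA)n at -0.42 ± 0.37, and (CA)n at -0.25 ± 0.37, in the authors' deposited table. (CATTC)n, which fell in soma, stood at -0.18 ± 0.56, with a 95% interval from -1.34 to 0.97, in PGCs. A strand pair with many reads, (AACTG)n at -0.76 ± 0.41 and (CAGTT)n at -0.70 ± 0.42 in the authors' deposited table, was among the 5 negative motifs with the smallest p. In soma that pair stood at -0.22 and -0.24 in the authors' deposited table, and both strands were lower than the median family there.

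The change in soma minus that in PGCs was tested motif by motif over the 1445 families of both tables. Of 272 simple repeats 0 differed past an adjusted p of 0.05, with a background of 0% in each direction. At an unadjusted p under 0.05 there were 41 of the 272 (15.1%), against 300 of the 1173 other families (25.6%) and 341 of all 1445 (23.6%), from the same limma estimates. After subtracting each table's median, 0 differed, with a background of 0% in each direction and 8 of the 272 at an unadjusted p under 0.05, against 12 of all 1445 families (both limma estimates, Satterthwaite degrees of freedom). Those with the smallest unadjusted p-values, from the same limma estimates, were lower in soma, and their unadjusted values were 0.00409 for (CCTAT)n, which rests on few reads, 0.0124 for (TTAG)n, a motif at 0.29 in PGCs, 0.0173 for (CGATA)n, the lowest motif of the soma table, and 0.0177 for (CATTC)n. The other 4 of the 8 were (GAATG)n and its neighbours in sequence (CTATT)n and (CACTC)n and also (CGGAA)n, with unadjusted limma values from 0.0231 to 0.0304. The difference contains the soma value, so motifs picked as lowest in soma are low in it by construction. The leading risen motif (CTGTG)n stood at 0.14 in PGCs, with a 95% interval from -1.02 to 1.30. If the assumed PGC sign were turned, 11 of the 272 would differ, and 2 relative to the medians. With the assumed PGC sign, 193 of the 272 motifs lay below the median family in both tables (71%), against 391 of the 1173 other families (33.3%) and 584 of all 1445 (40.4%), and with the sign turned 43 of the 272 and 94 of the 1173 would. Pearson's r of the log2 fold changes across motifs was 0.36, against 0.59 across the other families, and would be -0.36 and -0.59 with the sign turned.

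**Figure D4:**
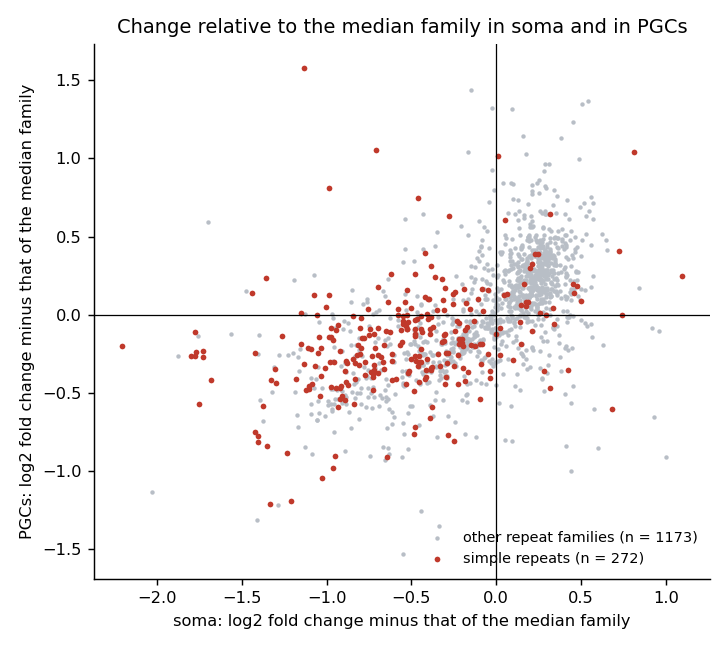
Log2 fold change (withdrawn minus supplied) minus that of the median family, in soma (x) against PGCs (y), for families in both tables, 1 point per family. With the PGC sign as assumed, 193 of the 272 simple repeats lie at the lower left, under the median family in both, and turning that sign would mirror the plot top to bottom and leave 43 there.

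The average signal over both vitamin C groups was also compared between the tables. In soma minus PGCs the average of a simple repeat was lower by a median of 0.49 (a difference of -0.49 log2), with 58 of 272 motifs higher in soma, while other families had a median of 0.72 with 944 of 1173 higher. The tables were scaled separately, so the values order families within the comparison and do not give a change of any one motif. Motifs that hold CG had a median of -1.01 with 1 of 42 higher in soma, and motifs of A and T had a median of -0.82 with 0 of 16 higher. The median average in soma was 2.62 log2 CPM for motifs with CG and 5.53 for those without. The lowest average of any family was -0.64 in soma and 0.24 in PGCs, so the floors of the tables differ. Their share in the low values of thinly covered motifs was not tested. The lowest were (CCTAA)n at -2.48 and its partner (TTAGG)n at -2.46, the telomere motif of many insects, and (TTAGGC)n, that of the nematode Caenorhabditis elegans, was at -1.55. The mouse telomere motif (TTAGGG)n was at -0.79. The highest were (CAGTA)n at 1.76 and its partner (TACTG)n at 1.38, and (CTGTG)n was at 0.99, all of which rose in soma. Several of these extremes fall outside the motifs named by rule and were chosen after their values were seen.

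**Figure D5:**
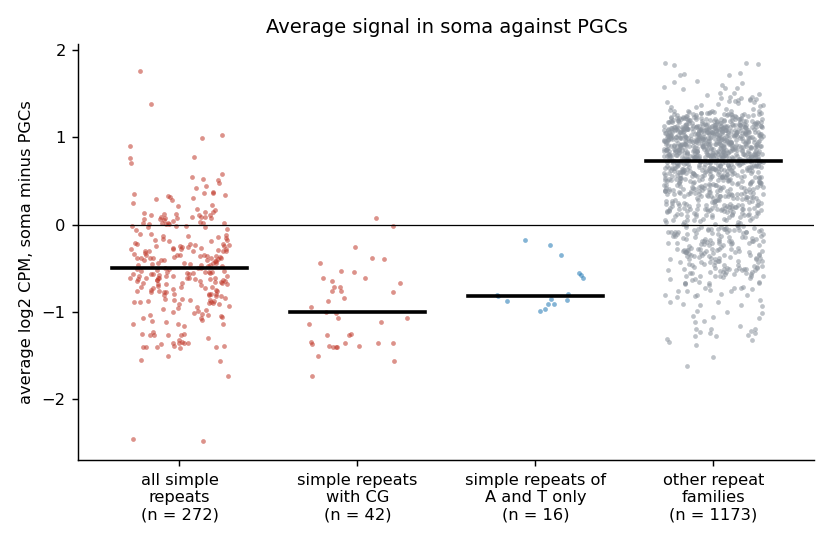
Average log2 CPM in soma minus that in PGCs, over both vitamin C groups, for all simple repeats, those that hold CG, those of A and T only, and other families, 1 point per family with the median as a bar. Medians are -0.49, -1.01, -0.82 and 0.72, and the lowest points, at -2.48 and -2.46, are (CCTAA)n and its partner.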

How the data were processed

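CUT&RUN with an antibody to H3K9me2, or with IgG, used 1000 thawed cells sorted by the Oct4GFP reporter and 18 cycles of PCR, per the labels' protocols. Per the submitters' processing notes, the tools were Trim Galore 0.4.0, Bowtie2 2.2.5 and Picard, with mm10 as build. The counting of reads that align to many copies of a repeat is not given in the sources used. The authors' deposited tables hold log2 fold changes, averages in log2 CPM, the moderated t (a score), p-values, adjusted p-values and B (a natural log of odds) from voom and limma, per the file headers. IgG libraries and gene tables were not used here.

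Standard errors were obtained as log2 fold change over t. Solving t and p for the degrees of freedom gave 7410 for soma and 29.6 for PGCs, where the residual ones are 5 and 8, and the deposited adjusted p-values (Benjamini-Hochberg) were recomputed and matched within 1.05e-15. Subtracting withdrawn minus supplied (3 and 4 libraries) fitted the soma standard errors with a misfit of 0.192%, against 1.62% for the reverse. With the depth of the groups left free to differ, the misfits were 0.192% and 0.867%. The lowest averages take steps of whole reads, which gave the library sizes (44 averages on steps in soma and 43 in PGCs, 0 off, relative tolerance 3e-11). Reads per library are geometric means at that size and lower limits, and group CPM are geometric means from average and fold change. Tests used Python 3.11.15, scipy 1.17.1 and statsmodels 0.14.6, two-sided, adjusted over all families. The direction of the contrast and the test against the median were tried on simulated counts fitted with limma 3.58.1. The test of the difference was tried on simulated estimates with true differences larger than any measured here. These trials checked the computation and give no power or error rate at the sizes reported. The difference between soma and PGCs takes both estimates as independent.

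The members and lists were chosen with earlier results of these data known. Named by rule are, in soma, up to 10 motifs with the smallest p in each direction and the 5 highest and lowest relative to the median, in PGCs the 5 with the smallest p in each direction, the 5 leading the difference in each direction, their strand partners, motifs of 1 or 2 letters or with CG, the telomere motif, and the 3 highest and lowest averages. Alternatives were the residual degrees of freedom, adjusted p under 0.01 or 0.1, Holm, leaving out the families of lowest average, other centring and the PGC sign turned. The residual degrees of freedom were used with the pooled standard errors kept.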

Additional observations from a re-analysis of the deposited data

How the results depend on the processing

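The count of simple repeats that rose in soma, 141, was 76 with residual degrees of freedom, 85 at an adjusted p under 0.01, 18 with Holm's adjustment and 93 of 171 tested without the 25% of families of lowest average. The count that fell, 5, was 0 with residual degrees of freedom, 0 at an adjusted p under 0.01 and 0 with Holm, and 6 at an adjusted p under 0.1. The count lower than the median family in soma, 67, was 0 with residual degrees of freedom, 42 at an adjusted p under 0.01 and 24 with Holm. It was 91 when centred on families that are not simple repeats and 49 when centred on the trend with average. Differences between soma and PGCs, 0, were 11 with the PGC sign turned, and 2 relative to the medians. The residual degrees of freedom, the lower threshold and Holm are stricter by construction and the alternative without the lowest averages tests fewer motifs, while for the other centrings the cause was not tested. With the PGC sign turned for further results, a step added after seeing the data, the PGC medians by composition, both rank correlations and Pearson's r change sign, and 43 in place of 193 motifs lie below the median family in both tables. The counts in PGCs remained 0 under every alternative run, with up to 3 at an unadjusted p under 0.05. The 10 named risen motifs passed under all 5 alternatives run on them, apart from (CATGC)n, left out with the lowest averages. These 10 were picked for the smallest p in the same data, so their passing follows largely from that choice. The 5 fallen motifs did not pass with residual degrees of freedom, at an adjusted p under 0.01 or with Holm. All 46 alternative medians (by motif length, by composition and between strand partners), restricted to higher averages or taken once per double-stranded repeat, lay within the median SE of the motifs concerned from the reported value. That SE is of a single motif and is wide for a median of many, so no stability follows from it. The 5-letter median in soma went from 0.70 to 0.46 and still counted as within it. The medians between strand partners, 0.11 in soma and 0.13 in PGCs, could not fall by more than their SE. Leaving out libraries was not possible without values per library. No paired analysis was possible because the deposited tables hold no values per library. Among motif lengths the 5-letter motifs had the fewest reads, and IgG background over these repeats was not compared.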
